A study of Homo sapiens with 14 samples.

Results

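The genes described here are 10 members of the heat shock chaperone system and its main regulator: HSPA6, HSPA1A, HSPA1B, HSPA8, HSPA5, DNAJB1, HSPH1, HSP90AA1, HSPB1 and HSF1. They were taken by gene symbol from a table of 19410 genes, and all 10 were present. The question put to them was whether the rise of HSPA6 in edited breast cancer cells came with a wider heat shock response. RNA-Seq was done on MDA-MB-231, a triple-negative breast cancer cell line, and no heat or drug treatment of the sequenced cultures is named for any group. The parental cells were compared with 6 lines edited with CRISPR/Cas9, which were SAP30-KO1 and SAP30-KO2 (SAP30 knockout), SIN3A+SIN3B-DKO1 and SIN3A+SIN3B-DKO2 (SIN3A and SIN3B knockout together), and MLL1-KO1 and MLL1-KO2 (MLL1 knockout). SAP30, SIN3A and SIN3B are subunits of a corepressor complex, and MLL1 (KMT2A) is a histone H3 lysine 4 methyltransferase. Each line was a mixture of several edited cells that had been picked and grown, so a line is neither a single clone nor an unselected population, and each of the 7 groups had 2 libraries. Making the lines took guide RNA delivery, puromycin selection, picking and regrowth, steps not described for the parental cells. The part of these steps in any change against parental was not tested.

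The heat shock response is the classic stress programme of the cell. When proteins unfold, the transcription factor HSF1 is freed from the chaperones that hold it, forms trimers, binds repeats of the letters GAA in promoters and switches on chaperone genes. HSP70 proteins (HSPA genes) bind unfolded stretches of protein, HSP40 proteins (DNAJ genes) hand them their clients, HSP110 proteins (HSPH1) exchange their nucleotide, HSP90 proteins finish the folding of kinases and receptors, and small heat shock proteins (HSPB1) hold unfolded proteins in solution. HSPA6 encodes a strictly inducible HSP70 that is close to silent in unstressed cells and is among the genes that respond most steeply to heat and proteotoxic drugs. HSPA1A and HSPA1B are the main inducible HSP70 genes, HSPA8 is the constitutive cytosolic one, and HSPA5 (BiP) belongs to the endoplasmic reticulum, where the unfolded protein response controls it rather than HSF1.

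The promoters are shown first because HSF1 binding sites define the response. RefSeq promoter windows (build GRCh38.p14) were found for 9 of the 10 genes, 12 windows in all, and the 250 bases before each gene start were searched on both strands. The letters searched were the 2-unit heat shock element, GAANNTTC or TTCNNGAA, and the 3-unit element, which is GAANNTTC followed by NNGAA or TTCNNGAA followed by NNTTC and so contains 2-unit forms. The HSPA6 window (chr1:161524290-161524539, plus strand), HSPA1A (chr6:31815293-31815542, plus), HSPA1B (chr6:31827488-31827737, plus), 1 of the 3 DNAJB1 windows (chr19:14518398-14518647, minus) and HSPA5 (chr9:125241344-125241593, minus) are printed 5′ to 3′ along each gene's strand. Capitals mark the heat shock element letters, and the last base lies just before the gene start.
HSPA6: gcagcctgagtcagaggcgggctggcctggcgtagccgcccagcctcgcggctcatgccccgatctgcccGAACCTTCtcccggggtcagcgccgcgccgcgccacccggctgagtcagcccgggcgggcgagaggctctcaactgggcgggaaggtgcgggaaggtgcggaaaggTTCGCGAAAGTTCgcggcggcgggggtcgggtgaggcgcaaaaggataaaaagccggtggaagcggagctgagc
HSPA1A: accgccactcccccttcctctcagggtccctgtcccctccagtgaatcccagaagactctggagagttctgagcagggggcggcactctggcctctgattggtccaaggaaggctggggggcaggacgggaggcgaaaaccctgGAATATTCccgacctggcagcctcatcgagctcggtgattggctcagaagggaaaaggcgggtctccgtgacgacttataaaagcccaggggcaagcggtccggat
HSPA1B: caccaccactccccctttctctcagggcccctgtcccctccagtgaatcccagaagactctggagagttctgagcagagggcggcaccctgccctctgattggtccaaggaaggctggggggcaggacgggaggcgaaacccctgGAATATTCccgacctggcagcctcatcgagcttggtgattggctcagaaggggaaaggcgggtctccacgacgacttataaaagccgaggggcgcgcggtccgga
DNAJB1: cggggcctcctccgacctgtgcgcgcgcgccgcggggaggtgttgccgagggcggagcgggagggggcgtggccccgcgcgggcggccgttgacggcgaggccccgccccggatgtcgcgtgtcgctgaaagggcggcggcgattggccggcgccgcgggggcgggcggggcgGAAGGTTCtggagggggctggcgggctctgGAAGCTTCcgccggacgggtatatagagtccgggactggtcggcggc
HSPA5: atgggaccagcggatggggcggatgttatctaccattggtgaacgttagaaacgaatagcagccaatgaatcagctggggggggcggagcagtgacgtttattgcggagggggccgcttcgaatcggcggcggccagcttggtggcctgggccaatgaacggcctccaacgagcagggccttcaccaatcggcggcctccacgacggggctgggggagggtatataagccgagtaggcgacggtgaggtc

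HSPA6 held the 3-unit letters once, together with a separate 2-unit match farther upstream. Of all 35116 promoter windows of the same length, 155 (0.441%) held the 3-unit letters, 5.78% held GAANNTTC and 6.62% held TTCNNGAA. HSPA8 held 2 matches to the 3-unit letters and HSP90AA1 held 1 in 1 of its 2 windows, so that 3 of the 9 genes had them. HSPA1A, HSPA1B, DNAJB1 and HSPB1 had 2-unit matches and no 3-unit match, and HSPA5 and HSPH1 had neither in this stretch. The HSPA1A and HSPA1B windows shared 76 of 231 stretches of 20 bases, and both had GAATATTC, 1 match to TATAAA (found in 10.7% of all windows) and 2 matches to CCAAT (32.0% of all windows). HSPA5 had no heat shock element letters and 4 matches to CCAAT, which is part of the endoplasmic reticulum stress element. A match gives the letters only and does not show that a factor was bound.

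Values are TPM, transcript levels corrected for length and scaled to a total of 1000000 in each library, and came from 18415036 to 23162682 reads a library. A gene was tested if it reached 1 TPM in at least 2 of the 14 libraries, which 13540 genes did. It was called higher or lower where limma gave a Benjamini-Hochberg adjusted p under 0.05 over all tested genes and a change of at least 1.5-fold on the log2(TPM + 0.5) scale. All 6 lines were set against the same 2 parental libraries, so the 6 comparisons are not independent. The labels do not say that the 2 libraries of a group came from separate cultures, so each p measures the spread between libraries, which may be technical. In comparisons between genotypes, the spread between the 2 lines of a genotype does not enter the p. Of genes that mark MDA-MB-231, VIM was at 5740.0 to 8800.0 TPM, CD44 at 267 to 611, CAV1 at 356 to 659 and S100A4 at 85.8 to 1810.0 TPM in the 14 libraries, and AXL was at 711 TPM or more, while ESR1, PGR and CDH1 were near 0 (at most 0.191, 0.139 and 1.25 TPM) and EPCAM, GATA3 and ERBB2 were low (5.33 to 42.8 TPM). SAP30 RNA was lower in both SAP30-KO lines, and KMT2A RNA was lower in both MLL1-KO lines (log2 fold change -1.64 and -0.97) and in both SAP30-KO lines (-0.95 and -0.65). The 51 genes around KMT2A on chromosome 11 had medians of -0.98 and -0.44 in the MLL1-KO lines and -0.83 and -0.90 in the SAP30-KO lines. With these subtracted, KMT2A was at -0.66 (called) and -0.53 in the MLL1-KO lines and -0.12 and 0.24 in the SAP30-KO lines. In the libraries labelled SIN3A+SIN3B-DKO, SIN3B RNA was lower (log2 fold change -0.61 and -0.71) and SIN3A RNA was not (0.47 and 0.31). Of the leukocyte and macrophage genes PTPRC, CD14, ITGAM, CSF1R, CD68, LYZ, FCGR2A and FCGR3A, 4 of 8 were high enough to test. Their summed level was 182 to 186 TPM in parental cells and 169 to 298 TPM in the edited lines, nearly all of it CD68. CD68, CD14, CSF1R and LYZ were all called higher in SAP30-KO1 (log2 fold change 0.66, 0.65, 2.02 and 0.90), and the first 3 of them in SAP30-KO2 (0.61, 0.64 and 2.06). CSF1R was also called higher in SIN3A+SIN3B-DKO2, MLL1-KO1 and MLL1-KO2 (0.97, 1.51 and 1.61) and LYZ in both MLL1-KO lines (1.76 and 1.66), while CD14 was called lower in MLL1-KO1 (-1.05). Apart from CD68, these genes reached at most 3.98, 4.18 and 6.32 TPM (CD14, CSF1R and LYZ). PTPRC, ITGAM and FCGR3A, which define leukocytes, reached at most 0.603, 0.0544 and 0.107 TPM, and the part of this list in the results below was not tested.

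HSPA6, a gene of 1 exon on chromosome 1 (GRCh37, from 161494330 to 161496684), was barely expressed in parental cells and higher, though still low, in the SAP30-KO and SIN3A+SIN3B-DKO lines. HSPA6 was singled out by the study for its behaviour in these lines, so its values against parental and between genotypes are a description and carry no test. In bulk RNA from mixed lines, fewer cells expressing a gene and less RNA per cell cannot be told apart. Its level was 0.315 and 0.215 TPM in the parental libraries, which rested on 6 and 4 reads. It was 1.10 and 1.17 TPM in SAP30-KO1 (21 and 24 reads) and 0.948 and 1.06 TPM in SAP30-KO2 (21 and 23 reads). All 4 SAP30-KO libraries lay above both parental libraries.

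The libraries of SIN3A+SIN3B-DKO1 had 1.07 and 0.978 TPM of HSPA6 (24 and 21 reads) and those of SIN3A+SIN3B-DKO2 had 1.57 and 1.42 TPM (35 and 31 reads), the highest of all. MLL1-KO1 had 0.601 and 0.892 TPM (13 and 19 reads), between parental and the SAP30-KO libraries, and MLL1-KO2 had 0.223 and 0.525 TPM (4 and 10 reads). The lower MLL1-KO2 library lay inside the parental range, so these groups overlapped. From the lowest mean to the highest, the order was parental (0.265 TPM), MLL1-KO2 (0.374), MLL1-KO1 (0.747), SAP30-KO2 (1.003), SIN3A+SIN3B-DKO1 (1.02), SAP30-KO1 (1.13) and SIN3A+SIN3B-DKO2 (1.49). Among neighbours in that order, parental and MLL1-KO2 overlapped, and SAP30-KO2 and SIN3A+SIN3B-DKO1 overlapped.

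**Figure D1:**
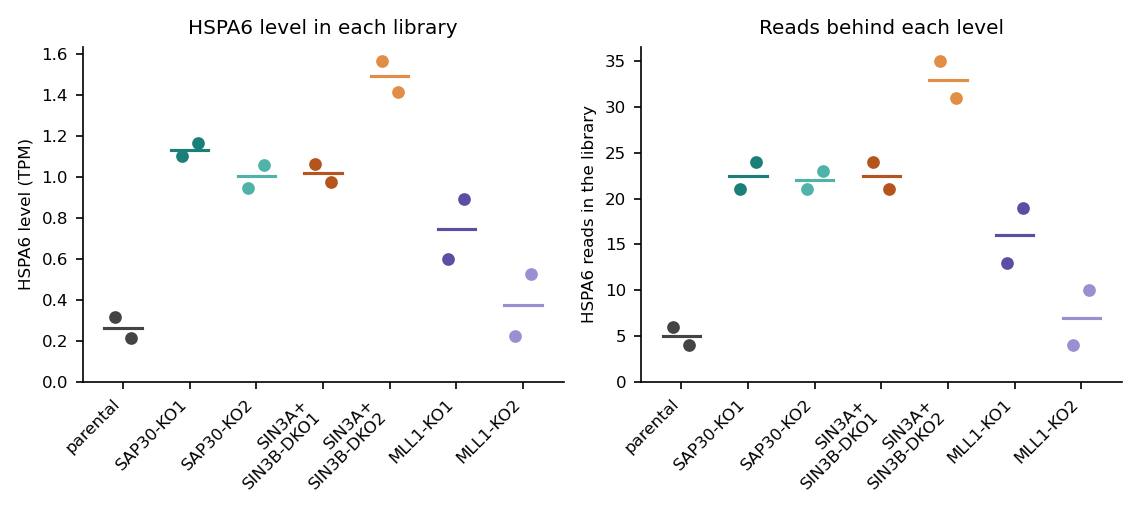
HSPA6 level in TPM (left) and the HSPA6 reads behind it (right) in each of the 14 libraries, with points for libraries and a short line for the mean of the 2 libraries of a group. The parental libraries sit at 4 and 6 reads, the 8 SAP30-KO and SIN3A+SIN3B-DKO libraries at 21 to 35 reads, and the MLL1-KO libraries from 4 to 19 reads.

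Counting error was large at this depth. Against parental, the ratio of HSPA6 reads, scaled between libraries as the TPM are, was 4.27 in SAP30-KO1 (exact 95% interval 2.12 to 9.51), 3.77 in SAP30-KO2 (1.87 to 8.41), 3.85 in SIN3A+SIN3B-DKO1 (1.91 to 8.57) and 5.62 in SIN3A+SIN3B-DKO2 (2.87 to 12.3). It was 2.81 in MLL1-KO1 (1.35 to 6.40) and 1.42 in MLL1-KO2 (0.588 to 3.58), and no test is read from these intervals. These intervals cover counting error only, since reads are not independent molecules. On the log2(TPM + 0.5) scale, which understates changes of such low genes, the differences were 1.10, 0.98, 0.99, 1.38, 0.70 and 0.17 in the same order (standard error 0.20 each). The MLL1-KO1 value was 0.46 with 1 TPM added in place of 0.5, and the MLL1-KO2 value was 0.79 after quantile normalization. HSPA6 passed the low-value filter only through edited libraries, because both parental libraries lay under 1 TPM.

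The 2 lines of one genotype differed in HSPA6 as follows, again as a description. SAP30-KO2 minus SAP30-KO1 was -0.12 (95% interval -0.56 to 0.32) and SIN3A+SIN3B-DKO2 minus SIN3A+SIN3B-DKO1 was 0.39 (-0.05 to 0.83). MLL1-KO2 minus MLL1-KO1 was -0.52 (-0.97 to -0.08). Between genotypes the difference was 0.15 for SIN3A+SIN3B-DKO minus SAP30-KO, -0.60 for MLL1-KO minus SAP30-KO and -0.75 for MLL1-KO minus SIN3A+SIN3B-DKO (standard error 0.14). The near copy HSPA7, a pseudogene on the same chromosome that shares 45.8% of the 50-base words of the HSPA6 transcript, had at most 1 read in any library. No 50-base word of HSPA6 occurs in HSPA1A.

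The genes around HSPA6 were mostly silent. Within 250 kb, 9 genes of the table were under 1 TPM in every library, which were FCGR2A, FCGR3A, FCGR2C, FCGR3B and FCGR2B, which encode immunoglobulin receptors of leukocytes, and FCRLA, PCP4L1, RPL31P11 and HSPA7. FCRLB, a low gene of the Fc receptor-like family, had 1.10 and 0.969 TPM in parental cells and was called higher in SAP30-KO1 (1.97 and 1.75 TPM, log2 fold change 0.62, adjusted p = 0.0059) and in SIN3A+SIN3B-DKO2 (2.08 and 2.26 TPM, 0.80, adjusted p = 0.0013). It was higher by less than 1.5-fold in SAP30-KO2 and SIN3A+SIN3B-DKO1 (0.53 and 0.55, limma adjusted p = 0.014 and 0.011). FCRLB was at 0.22 in MLL1-KO1 and -0.02 in MLL1-KO2. Its values rested on 11 to 33 reads a library, a depth at which counting error is large. SDHC, DUSP12 and ATF6, the active genes of the interval, were called in no line, with log2 fold changes from -0.37 to 0.16.

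Of the main inducible HSP70 genes, HSPA1A was lower where HSPA6 was highest, and HSPA1B changed by less than 1.5-fold in every line. HSPA1A had 5.11 and 5.30 TPM in the parental libraries, 1.43 and 1.29 TPM in SAP30-KO1 and 1.64 and 1.58 TPM in SAP30-KO2. It had 1.10 and 0.935 TPM in SIN3A+SIN3B-DKO1 and 1.14 and 1.17 TPM in SIN3A+SIN3B-DKO2. The MLL1-KO1 libraries had 4.45 and 4.23 TPM and the MLL1-KO2 libraries 3.29 and 3.22 TPM. The 8 SAP30-KO and SIN3A+SIN3B-DKO libraries thus lay far below parental with no overlap, and the MLL1-KO libraries between them.

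The log2 fold change of HSPA1A was -1.62, -1.44, -1.91 and -1.79 in SAP30-KO1, SAP30-KO2, SIN3A+SIN3B-DKO1 and SIN3A+SIN3B-DKO2 (standard error 0.11, adjusted p from 2.4e-07 to 1.7e-06, limma). It was called lower in MLL1-KO2 as well (-0.60, adjusted p = 0.00064), a call lost without parental replicate 2 (-0.58), with 1 TPM added in place of 0.5 (-0.54), after quantile normalization (-0.46) and with median ratio scaling (-0.56). It was not called in MLL1-KO1 (-0.24, adjusted p = 0.088). HSPA1A was higher in the MLL1-KO lines than in the SAP30-KO lines (1.11, standard error 0.08, adjusted p = 2.8e-07) and the SIN3A+SIN3B-DKO lines (1.43, standard error 0.08, adjusted p = 3.2e-08).

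HSPA1B, which encodes the same protein, had a different pattern. It had 13.2 and 12.7 TPM in parental, 17.2 and 16.3 TPM in SAP30-KO1 and 16.8 and 15.3 TPM in SAP30-KO2. It had 12.3 and 11.5 TPM in SIN3A+SIN3B-DKO1, 11.4 and 11.4 TPM in SIN3A+SIN3B-DKO2, 16.6 and 15.9 TPM in MLL1-KO1 and 9.46 and 9.46 TPM in MLL1-KO2. All 4 SAP30-KO and both MLL1-KO1 libraries lay above parental, and the other 6 edited libraries lay below it. HSPA1B was higher by less than 1.5-fold in SAP30-KO1 (log2 fold change 0.36, adjusted p = 0.00087), SAP30-KO2 (0.30, adjusted p = 0.0028) and MLL1-KO1 (0.32, adjusted p = 0.0015). It was -0.12 in SIN3A+SIN3B-DKO1 (adjusted p = 0.14), -0.17 in SIN3A+SIN3B-DKO2 (adjusted p = 0.046) and -0.43 in MLL1-KO2 (adjusted p = 0.00016), again under 1.5-fold. Between the MLL1-KO lines HSPA1B was lower in MLL1-KO2 (-0.75, standard error 0.07, adjusted p = 6.9e-06), where 3.27% of all tested genes were called lower.

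HSPA1A and HSPA1B lie next to each other on chromosome 6 (GRCh37, from 31783320 to 31785723 and from 31795515 to 31798031) and 75.1% of the 50-base words of HSPA1A also occur in HSPA1B, so the assignment of reads between them is uncertain. HSPA1A held 27.2% (exact 95% interval 25.1 to 29.4) and 28.7% (26.5 to 31.0) of the reads of the pair in the parental libraries. It held 7.06% to 9.04% in the 8 SAP30-KO and SIN3A+SIN3B-DKO libraries. Its share was 20.6% and 20.4% for MLL1-KO1, and MLL1-KO2 had 25.1% and 24.7%. The HSPA1A share was thus lowest in the same 8 libraries in which its level was lowest. HSPA1B was above parental in the SAP30-KO libraries and below it in the SIN3A+SIN3B-DKO libraries. Whether the copies changed or the reads were assigned differently was not tested.

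Summed as 1 gene, a choice made after seeing the data, the pair changed by 0.00 and -0.04 on the log2 scale in SAP30-KO1 and SAP30-KO2 (standard error 0.06, adjusted p = 0.96 and 0.64). It changed by -0.48 and -0.51 in the SIN3A+SIN3B-DKO lines, 0.18 in MLL1-KO1 and -0.50 in MLL1-KO2, none of which reached 1.5-fold. The TPM of both genes are not comparable in level with other genes. The length implied by the deposited values was 7.26 and 7.20 times the annotated exon length, as it was for the 110 protein-coding genes of this stretch of chromosome 6 from 29 to 33 Mb (median 7.09 times) against 0.99 times elsewhere. Ratios of TPM within a gene are not touched by that length. The log2 changes given here are, because the added 0.5 TPM weighs more on values made low by it. For HSPA1A in SIN3A+SIN3B-DKO1 the change of -1.91 ran from -2.32 to -1.62 over the alternatives tried.

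**Figure D2:**
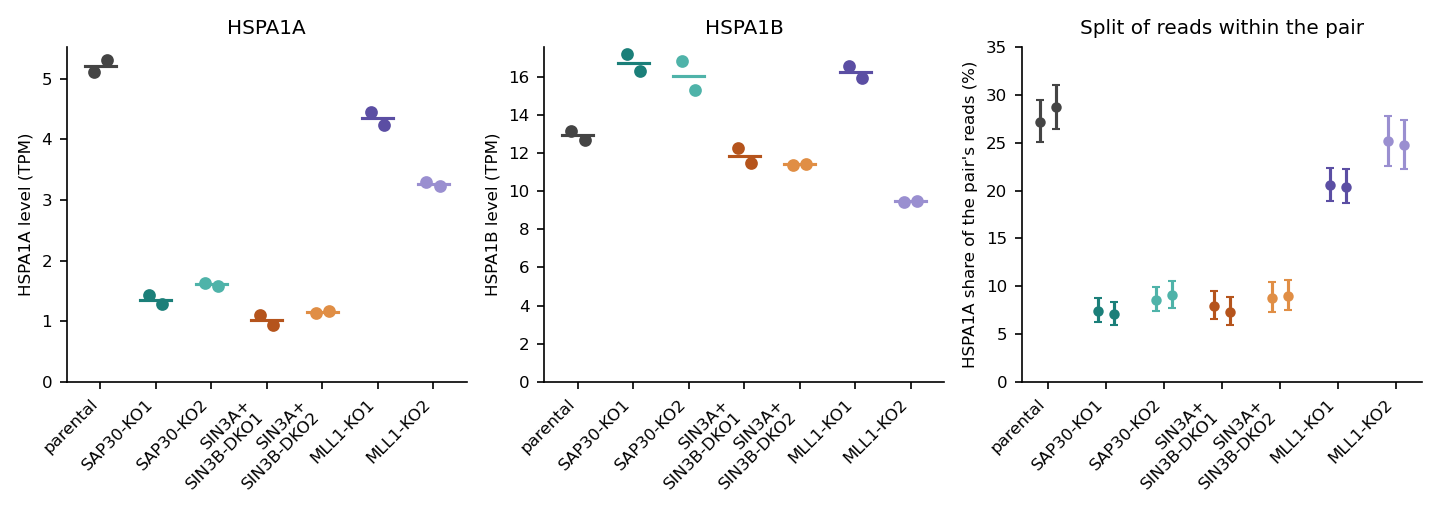
HSPA1A level (left) and HSPA1B level (middle) in TPM, and the share of the pair's reads given to HSPA1A in percent with exact 95% intervals (right), for each of the 14 libraries. HSPA1A is lowest in the 8 SAP30-KO and SIN3A+SIN3B-DKO libraries, where its share is 7.06% to 9.04%, while HSPA1B stays between 9.46 and 17.2 TPM.

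The constitutive HSP70 gene HSPA8, which keeps cytosolic proteins folded in unstressed cells, was the most abundant member. It had 3508 and 3580 TPM in parental cells and from 2897 to 3021 TPM in the 4 SAP30-KO libraries. It had 3283 to 3499 TPM in the SIN3A+SIN3B-DKO libraries and 3436 to 3539 TPM in the MLL1-KO libraries. HSPA8 was slightly lower in the SAP30-KO lines (log2 fold change -0.25 and -0.27, standard error 0.03, adjusted p = 2e-05 and 1.2e-05) with no overlap with parental. The other lines had -0.10, -0.04, -0.04 and 0.00, and no line reached 1.5-fold.

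HSPA8 lies on the long arm of chromosome 11 (GRCh37, from 122928197 to 122933938), and the genes around it were lower in the edited lines. The median of its 51 neighbouring genes changed by -0.76, -0.78, -0.18, -0.20, -0.94 and -0.33 on the log2 scale in the order of the 6 lines. With that median subtracted, HSPA8 changed by 0.51 and 0.51 in the SAP30-KO lines, 0.08 and 0.16 in the SIN3A+SIN3B-DKO lines, 0.91 in MLL1-KO1 (called higher, adjusted p = 3.5e-08) and 0.33 in MLL1-KO2. HSPA8 thus stayed near its parental level where its neighbours fell, and the copy number of this arm was not measured here. The median of the 51 genes around HSPA6 stayed between -0.05 and 0.12 in the 6 lines, although FCRLB, within 250 kb of it, changed by more.

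**Figure D3:**
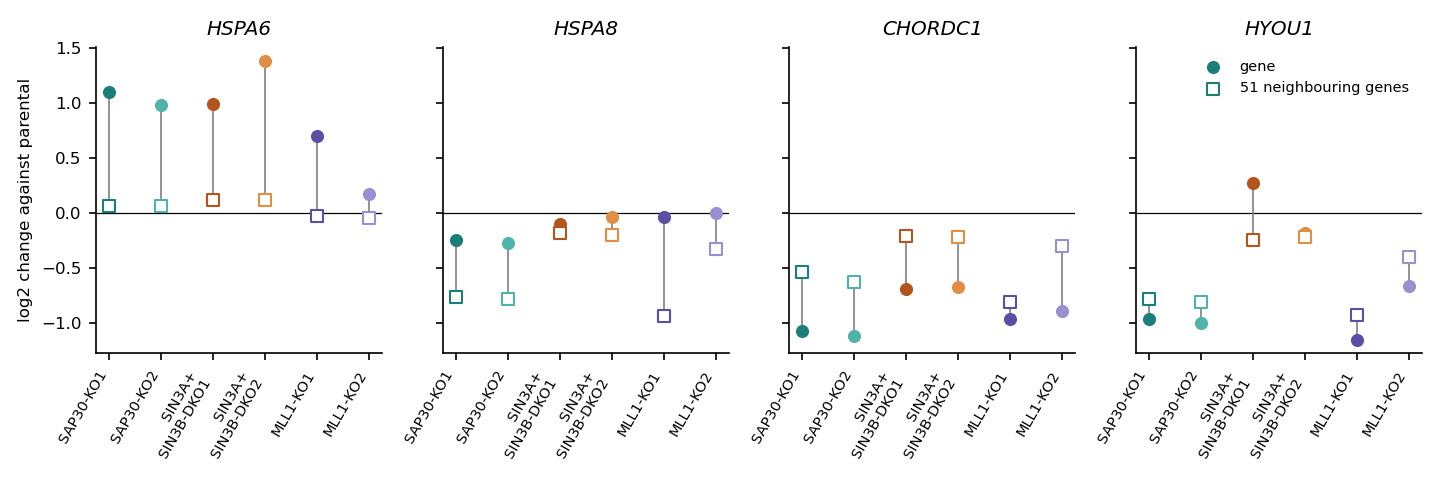
Log2 change against parental of HSPA6, HSPA8, CHORDC1 and HYOU1 in the 6 edited lines (filled circles) beside the median change of 51 neighbouring genes on the chromosome (open squares). The median of the genes around HSPA6 is at most 0.12, and HSPA8 stays at -0.04 in MLL1-KO1, where its neighbours are at -0.94.

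HSPA5, the HSP70 of the endoplasmic reticulum, was the member that differed most between genotypes after HSPA1A. It had 945 and 957 TPM in parental cells, 758 and 783 TPM in SAP30-KO1 and 694 and 724 TPM in SAP30-KO2. It had 1654 and 1792 TPM in SIN3A+SIN3B-DKO1, and 1485 and 940 TPM in SIN3A+SIN3B-DKO2, 2 libraries that differed more than any other pair. The MLL1-KO1 libraries had 675 and 724 TPM and the MLL1-KO2 libraries 638 and 646 TPM. Both SIN3A+SIN3B-DKO1 libraries lay above every other library, and all 8 SAP30-KO and MLL1-KO libraries lay below parental.

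HSPA5 was called higher in SIN3A+SIN3B-DKO1 (log2 fold change 0.86, standard error 0.15, adjusted p = 0.00062). In SIN3A+SIN3B-DKO2 the value was 0.31 (adjusted p = 0.11), and 0.64 without its replicate 2, when the gene was called. The other lines had -0.30, -0.42, -0.44 and -0.57 (SAP30-KO1, SAP30-KO2, MLL1-KO1 and MLL1-KO2), none of them of 1.5-fold. All groups share a spread estimate in this fit, so the unlike SIN3A+SIN3B-DKO2 libraries widen the HSPA5 standard error in every comparison. HSPA5 was higher in the SIN3A+SIN3B-DKO lines than in the SAP30-KO lines (0.95, standard error 0.11, adjusted p = 3e-05), where 3.25% of tested genes were called higher, and lower in the MLL1-KO lines than in the SIN3A+SIN3B-DKO lines (-1.09, adjusted p = 3.9e-06), where 13% were called lower.

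Among the co-chaperones, DNAJB1, the HSP40 that delivers clients to inducible HSP70 and is itself a standard HSF1 target, was a little higher in all 6 lines, least in MLL1-KO2. It had 541 and 540.4 TPM in parental, 647 and 661 TPM in SAP30-KO1, and 654 and 639 TPM in SAP30-KO2. It had 694 and 695 TPM in SIN3A+SIN3B-DKO1, 690.3 and 653 TPM in SIN3A+SIN3B-DKO2, 657 and 671 TPM in MLL1-KO1, and 577 and 570 TPM in MLL1-KO2. Every edited library lay above both parental libraries. The folds were 1.21, 1.20, 1.28, 1.24, 1.23 and 1.06 in the order of the lines, with adjusted p from 2.5e-06 to 0.026, so that each passed the p threshold and none reached 1.5-fold. The MLL1-KO2 value, 0.08 on the log2 scale, ran from 0.00 to 0.13 over the alternatives tried. With no fold minimum, 28.1%, 26.9%, 27.8%, 25.7%, 21.8% and 28% of all tested genes were called higher in these lines. DNAJB1 differed between the MLL1-KO lines by -0.21 (MLL1-KO2 minus MLL1-KO1, standard error 0.03, adjusted p = 0.00019).

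HSPH1, the HSP110 nucleotide exchange factor that is strongly heat inducible, ranged from 274 to 447 TPM. It changed by 0.17 in each SAP30-KO line (adjusted p = 0.018 in both), 0.07 and -0.01 in the SIN3A+SIN3B-DKO lines, -0.23 in MLL1-KO1 and -0.47 in MLL1-KO2 (adjusted p = 1.3e-05). The median of its 51 neighbouring genes on chromosome 13 changed by -0.13, -0.19, -0.19, -0.14, -0.36 and -0.35 in the order of the lines. Over the alternatives tried, HSPH1 ran from 0.13 to 0.30 in SAP30-KO1 and from 0.15 to 0.36 in SAP30-KO2. It ran from -0.25 to 0.13 in MLL1-KO1 and from -0.52 to -0.12 in MLL1-KO2. No line reached 1.5-fold. HSPH1 was lower in the MLL1-KO lines than in the SAP30-KO lines by 0.52 on the log2 scale (fold 0.699), again under 1.5-fold.

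HSP90AA1, the stress-inducible cytosolic HSP90, did not rise in any line. It had 2388 and 2389 TPM in parental cells and between 2244 and 2442 TPM in the SAP30-KO and MLL1-KO1 libraries. It had 1780 to 2093 TPM in the SIN3A+SIN3B-DKO libraries and 1684 and 1622 TPM in MLL1-KO2, all below parental. The log2 fold changes were -0.02, -0.08, -0.41, -0.25, 0.02 and -0.53 in the order of the lines, none of 1.5-fold.

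HSPB1 (HSP27), the small heat shock protein that binds unfolding proteins without ATP, was higher in all 6 lines. It had 273 and 289 TPM in parental, 417 and 395 TPM in SAP30-KO1, and 489 and 462 TPM in SAP30-KO2. It had 425 and 436 TPM in SIN3A+SIN3B-DKO1, 388 and 344 TPM in SIN3A+SIN3B-DKO2, 377 and 375 TPM in MLL1-KO1, and 433 and 439 TPM in MLL1-KO2. Every edited library lay above both parental libraries, the MLL1-KO2 libraries included, in which HSPA6 was near its parental level. HSPB1 was called higher in SAP30-KO2 (log2 fold change 0.76), SIN3A+SIN3B-DKO1 (0.62) and MLL1-KO2 (0.63), with adjusted p from 8.3e-07 to 3.9e-06. The other lines had 0.53, 0.38 and 0.42 (SAP30-KO1, SIN3A+SIN3B-DKO2 and MLL1-KO1), past the p threshold but under 1.5-fold. The SIN3A+SIN3B-DKO1 call was lost without parental replicate 1 (0.58) and with the median of neighbouring genes subtracted (0.55).

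HSF1, the regulator itself, varied little, from 185 to 250 TPM. Its log2 fold changes were 0.11, 0.19, 0.34, 0.19, 0.22 and 0.24, none of 1.5-fold, beside a median change of its 51 neighbours on chromosome 8 of 0.25 to 0.40. HSF1 acts through its protein, so its RNA level does not measure its activity.

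Counted over the 9 members other than HSPA6, no line had more than 2 called higher. In SAP30-KO1 none was called higher and HSPA1A was called lower, where 7.8% of all tested genes were called higher and 7.86% lower. In SAP30-KO2, HSPB1 was higher and HSPA1A lower (background 7.44% and 8.12%). In SIN3A+SIN3B-DKO1, HSPB1 and HSPA5 were higher and HSPA1A lower (background 7.76% and 8.66%). In SIN3A+SIN3B-DKO2, none was higher and HSPA1A was lower (background 6% and 7.56%). In MLL1-KO1, where 6.89% and 16.3% of tested genes were called higher and lower, 0 of the 9 members were called by limma, although 6 had an unadjusted p under 0.05, and limma's voom fit on the recovered reads called 0 as well. In MLL1-KO2, HSPB1 was higher and HSPA1A lower (background 10.2% and 14.9%). The background of the MLL1-KO lines depended on scaling, with 70.3% and 59.3% of all calls lower in MLL1-KO1 and MLL1-KO2, and 51.6% and 48.4% after quantile normalization. With 9 genes, counts of 0 to 2 are near what those shares give. Without a fold minimum, 6, 8, 7, 6, 6 and 8 of the 9 members passed the p threshold in the order of the lines, beside 51%, 51.7%, 56%, 49.6%, 60.5% and 64.2% of all tested genes. The share among the 9 members was the larger in each line, and that difference was not tested. Of those members, 4, 5, 4, 3, 4 and 3 were higher and 2, 3, 3, 3, 2 and 5 were lower. Of all tested genes, 28.1%, 26.9%, 27.8%, 25.7%, 21.8% and 28% were higher. The lower shares were 22.9%, 24.8%, 28.2%, 23.9%, 38.7% and 36.2%, and the counts of members were not tested against either.

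The median log2 fold change of the 9 members was 0.11, 0.17, 0.07, -0.01, 0.02 and -0.43 in the order of the lines, beside medians over all tested genes of 0.03, 0.01, 0.00, 0.01, -0.09 and -0.04. The lowest member median was in MLL1-KO2. Between the 2 lines of a genotype, HSPA1B in the MLL1-KO pair was the single call among the 9 genes, against a background of 10.4% in either direction (7.15% higher and 3.27% lower). In limma 0 members were called between the SAP30-KO lines (0.148% of all genes, 0.0739% in each direction), where 1 had an unadjusted p under 0.05, and 0 between the SIN3A+SIN3B-DKO lines (2.23%, with 1.01% higher and 1.22% lower), where 4 had. Between genotypes, 1 of the 9 was called in SIN3A+SIN3B-DKO against SAP30-KO (HSPA5 higher, background 7.47%, with 3.25% higher and 4.22% lower). In MLL1-KO against SAP30-KO, 1 was called (HSPA1A higher, background 19.8%, with 6.34% higher and 13.5% lower), and in MLL1-KO against SIN3A+SIN3B-DKO, 2 were called (HSPA1A higher and HSPA5 lower, background 19.9%, with 6.91% higher and 13% lower).

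**Figure D4:**
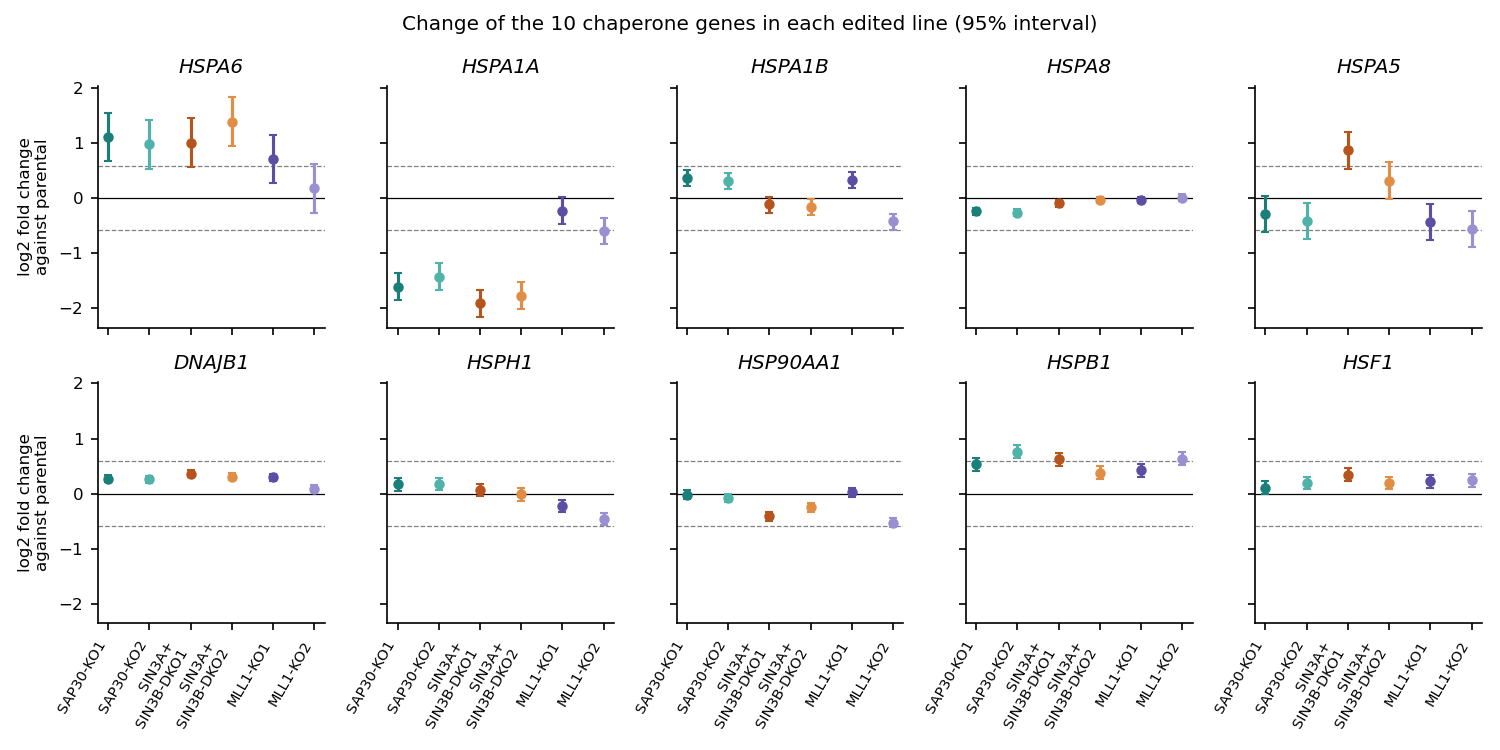
Log2 fold change against parental of the 10 genes in each of the 6 edited lines, with 95% intervals from limma and dashed lines at 1.5-fold in either direction. HSPA6 is at 0.70 to 1.38 in 5 lines, HSPA1A at -1.91 to -1.44 in the SAP30-KO and SIN3A+SIN3B-DKO lines, HSPB1 at 0.38 to 0.76 and HSPA5 at 0.86 in SIN3A+SIN3B-DKO1, while the values of the other 6 genes stay inside the 1.5-fold lines.

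Of 28 other heat-inducible HSF1 targets, 25 were high enough to test. Of these, 1 was called higher and 1 lower in SAP30-KO1, in SAP30-KO2 and in SIN3A+SIN3B-DKO2, and 1 and 3 in SIN3A+SIN3B-DKO1. In MLL1-KO1 the counts were 1 and 2, and in MLL1-KO2 they were 0 and 4. Of all tested genes, 6% to 10.2% were called higher and 7.56% to 16.3% lower in these lines. The median log2 fold change of the list lay between -0.19 and 0.05. ZFAND2A (AIRAP), a small proteasome-binding zinc finger protein induced by arsenite and heat, was called higher in the 4 SAP30-KO and SIN3A+SIN3B-DKO lines (0.91, 0.89, 1.49 and 1.29) and was at 0.29 in MLL1-KO1 and 0.27 in MLL1-KO2. Its neighbours on chromosome 7 changed by 0.33, 0.35, 0.40 and 0.30 in the first 4 lines, and with them subtracted ZFAND2A was at 0.59, 0.54, 1.10 and 0.98, no longer called in SAP30-KO2. CHORDC1, an HSP90 partner, was called lower in all 6 lines (-1.12 to -0.67), and lies on chromosome 11, where its neighbours changed by -0.81 to -0.21. With them subtracted it was called in MLL1-KO2 alone (-0.59). HSPA4L, an HSP110 relative, was called lower in SIN3A+SIN3B-DKO1, MLL1-KO1 and MLL1-KO2 (-0.71, -0.85 and -0.75), and RGS2, which dampens G protein signals, in MLL1-KO2 (-0.71). Of these calls, HSPA4L in MLL1-KO2 (-0.85) was the one that held with neighbours subtracted. The 3 targets too low to test, CRYAB, HSPB8 and HSPA1L, named here after their values were seen, reached at most 0.344, 0.695 and 0.563 TPM.

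**Figure D5:**
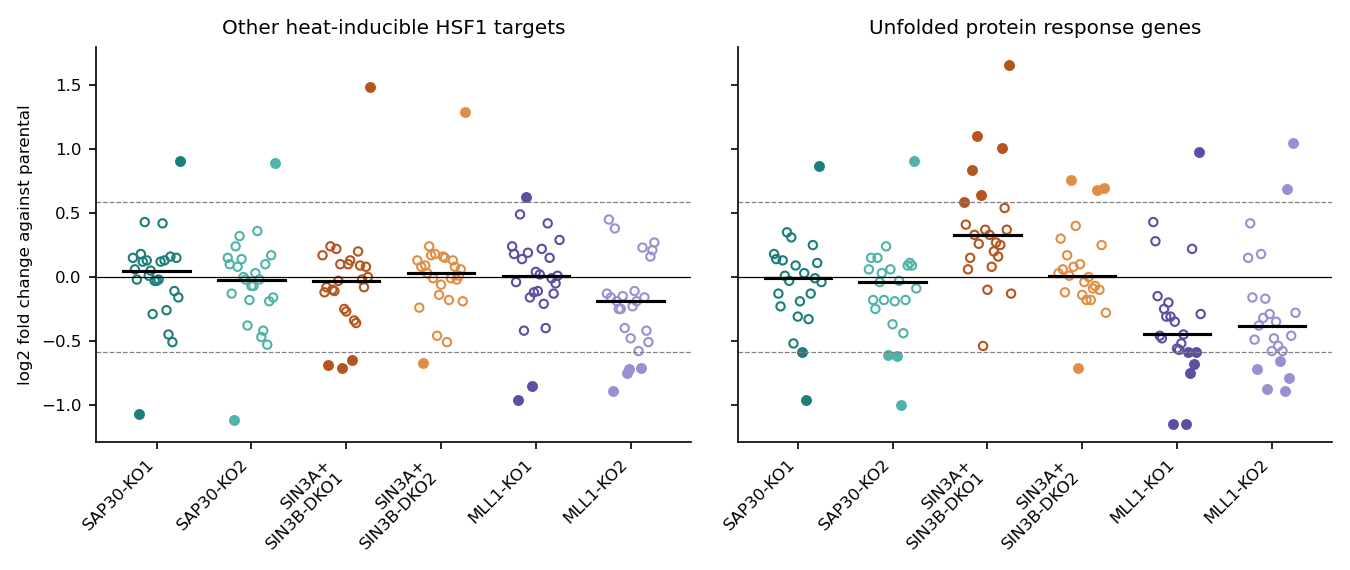
Log2 fold change against parental of 25 other heat-inducible HSF1 targets (left) and 23 unfolded protein response genes (right) in the 6 edited lines; filled points were called, open points were not, black lines are medians and dashed lines mark 1.5-fold. The medians of the heat-inducible genes lie between -0.19 and 0.05, and those of the unfolded protein response genes between -0.45 and 0.33.

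Other chaperone families showed single genes moving, in lines where 6% to 10.2% of all tested genes were called higher and 7.56% to 16.3% lower. Of 7 tested HSP70 relatives, HYOU1, an endoplasmic reticulum HSP110 on chromosome 11, was called lower in the SAP30-KO and MLL1-KO lines (-0.96, -1, -1.15 and -0.66), where its neighbours changed by -0.78, -0.81, -0.93 and -0.40. With the neighbours subtracted it was called in no line. HSPA2, a low HSP70 gene best known from the testis, was called higher in SAP30-KO1 and SAP30-KO2 (0.64 and 0.73) and lower in MLL1-KO1 (-1.30). Of 11 other DNAJA and DNAJB genes, DNAJB5 was called higher in both SAP30-KO lines (0.60 and 0.66), DNAJB2 in MLL1-KO2 (1.05) and DNAJB9 in SIN3A+SIN3B-DKO1 (0.64), and none was called lower. With neighbours subtracted, the calls of HSPA2 in SAP30-KO1 (0.53) and of DNAJB5 in both lines (0.54 and 0.56) were lost.

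Of 18 HSP90 genes and co-chaperones, at most 1 was called higher and 3 lower in a line. Beside this list and the next ones, 6% to 10.2% of all tested genes were called higher and 7.56% to 16.3% lower. FKBP5, a steroid receptor co-chaperone, was called lower in MLL1-KO1 and MLL1-KO2 (-1.98 and -1.82), and BAG2, an HSP70 exchange factor, was called lower in 3 lines (-0.60, -0.63 and -0.94). CDC37, which loads kinases onto HSP90, was called higher in both SIN3A+SIN3B-DKO lines (0.78 and 0.70). With neighbours subtracted, BAG2 was called in MLL1-KO2 alone (-0.62). Among 10 chaperonin genes, HSPD1, the mitochondrial HSP60, was called lower in MLL1-KO2 (-0.72), the single call of that list in the 6 lines, and was at -0.48, not called, with neighbours subtracted. Of the other small heat shock protein genes, HSPB11 was not called in any line (-0.25 to 0.31), and the rest were too low to test. Of 9 heat shock factors and regulators, HSBP1, which binds HSF1 trimers, was called lower in 4 lines (-0.72 to -0.66), beside neighbours on chromosome 16 that changed by -0.68 to -0.44.

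The unfolded protein response list, which HSPA5 belongs to by function, is given beside HSPA5. Of 23 genes tested besides HSPA5, 6 were called higher and 0 lower in SIN3A+SIN3B-DKO1 (median 0.33), and 3 and 1 in SIN3A+SIN3B-DKO2 (median 0.01). In SAP30-KO1 the counts were 1 and 2, in SAP30-KO2 1 and 3, in MLL1-KO1 1 and 6 (median -0.45) and in MLL1-KO2 2 and 5 (median -0.38). The shares of all tested genes called higher and lower were 7.76% and 8.66% in SIN3A+SIN3B-DKO1 and 6% and 7.56% in SIN3A+SIN3B-DKO2. SAP30-KO1 had 7.8% and 7.86%, while SAP30-KO2 had 7.44% and 8.12%. They were 6.89% and 16.3% for MLL1-KO1, and MLL1-KO2 had 10.2% and 14.9%. TRIB3, a pseudokinase induced by ATF4, was called higher in all 6 lines (0.70 to 1.66). PPP1R15A (GADD34), which restarts translation after stress, was called higher in both SIN3A+SIN3B-DKO lines and MLL1-KO2 (1.01, 0.68 and 0.69), and DNAJC3, an endoplasmic reticulum co-chaperone, was called lower in 4 lines (-1.15 to -0.61) beside neighbours on chromosome 13 at -0.49 to -0.31. With neighbours subtracted, TRIB3 was not called in SIN3A+SIN3B-DKO2 (0.45), PPP1R15A not in MLL1-KO2 (0.54), and DNAJC3 in MLL1-KO1 alone (-0.66).

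The 2 libraries of SIN3A+SIN3B-DKO2 stood apart in this pathway. Of HSPA5 and the 23 other genes, 23 of 24 were lower in replicate 2 than in replicate 1 (median -0.31), against 46.5% of all tested genes. In the other groups 2 to 11 of the 24 genes were lower in replicate 2. The reads of these 2 libraries differed by a chi-square of 8 per degree of freedom over genes, against 1.47 to 3.77 in the other groups. Values of SIN3A+SIN3B-DKO2 for HSPA5 and its pathway are thus means of unlike libraries.

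Of 8 oxidative stress genes, GCLC, which makes the first step of glutathione synthesis, was called lower in all 6 lines (-0.66 to -0.60). In these lines 6% to 10.2% of all tested genes were called higher and 7.56% to 16.3% lower. HMOX1, the heme oxygenase that heat, arsenite and oxidants induce, was called higher in SIN3A+SIN3B-DKO1, MLL1-KO1 and MLL1-KO2 (0.75, 0.89 and 1.10). NQO1 was called lower in the SIN3A+SIN3B-DKO lines (-0.91 and -1.06) and TXNRD1 in the MLL1-KO lines (-0.80 and -0.92), both of them targets of the oxidant sensor NRF2. The neighbours of GCLC on chromosome 6 changed by -0.31 to -0.14 and those of NQO1 on chromosome 16 by -0.48 and -0.48. With neighbours subtracted, GCLC was called in no line (-0.47 to -0.30), NQO1 in SIN3A+SIN3B-DKO2 (-0.59) and not in SIN3A+SIN3B-DKO1 (-0.43), TXNRD1 in MLL1-KO2 (-0.64) and not in MLL1-KO1 (-0.44), and HMOX1 in the same 3 lines (0.73, 0.89 and 1.01).

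The genes whose log2 levels followed HSPA6 most closely over the 14 libraries were HEATR8-TTC4 (Pearson r = 0.946), NLRP2 (0.943), TTC4 (0.943), HCCS (0.940) and ME2 (0.937). HEATR8-TTC4 is a readthrough gene that overlaps TTC4, an HSP90 co-chaperone, so the pair share reads. NLRP2, an innate immune NOD-like receptor, had 3.56 and 3.70 TPM in parental, and 10.9 to 14.9 TPM in the 8 SAP30-KO and SIN3A+SIN3B-DKO libraries. The MLL1-KO1 libraries held 7.12 and 7.94 TPM of it, and MLL1-KO2 was back at 3.22 and 3.34 TPM. HCCS attaches heme to cytochrome c and ME2 is a mitochondrial malic enzyme. The 14 points are 7 pairs of libraries that share their line, so these values describe likeness across lines, and 1.84% of all tested genes had an r above 0.8.

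Among the members, DNAJB1 was most like HSPA6 (r = 0.86, position 76 of 13539 genes), although it changed by no more than 1.28-fold. HSPA1A ran opposite (r = -0.83), and HSPA8 was at -0.52. HSPH1 (0.50), HSPB1 (0.41), HSF1 (0.37), HSPA5 (0.35), HSPA1B (0.29) and HSP90AA1 (0.04) lay between.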

How the data were processed

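RNA-Seq was done on 14 libraries of MDA-MB-231, 2 in each of 7 groups taken from the labels. Per the labels, FastQC 0.11.2, TopHat and featureCounts were used with hg19; other versions and settings are not given in the sources used here. The authors deposited 1 table of 19410 genes named as RPKM. The deposited values are TPM, since every library sums to 1000000, and TPM hide differences in total RNA. The steps between low values gave back whole reads (within 0.02 reads) for 18519 of 18519 genes above 0, with 18415036 to 23162682 reads a library. No strand setting is given. The design had allowed for RPKM or TPM, and the test suits both.

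From the deposited TPM, log2(TPM + 0.5) of 13540 genes with at least 1 TPM in at least 2 libraries was fitted in limma 3.58.1 (R 4.3.3), as 7 group means with a variance trend. Calls needed a Benjamini-Hochberg adjusted p under 0.05 over all tested genes and 1.5-fold. The fit was tested on simulated data. Counting intervals are exact 95% intervals (scipy 1.17.1). Coordinates are GRCh37 (GENCODE) unless RefSeq GRCh38.p14 is named, and 12153 of the tested genes had a position. The members, lists and tests were chosen with earlier results of these data known. Genes named are the 10 members, the targeted genes, the 5 most like HSPA6 by Pearson r, those within 250 kb of HSPA6 and, in each list, up to 4 genes called in the most lines. A few genes that this rule or the marker lists name are not reported here. The 28 gene names stored as dates were left as they are. In total, 12 alternatives were planned (other pseudocounts, no filter, other scalings, other fold minimums, fewer libraries, the replicate block, voom on recovered reads, neighbouring genes subtracted, each library left out) and 1 was added, HSPA1A and HSPA1B summed.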

Additional observations from a re-analysis of the deposited data

Results flagged for a closer look

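Of the differences given above, 5 between lines or genotypes passed limma's test of the difference itself (adjusted p under 0.05 and at least 1.5-fold). Groups of 2 libraries were not tested for outliers. HSPA5 was higher in the SIN3A+SIN3B-DKO lines than in the SAP30-KO lines by 0.95 (standard error 0.11, adjusted p = 3e-05), with all 4 libraries of the first above all 4 of the second. HSPA5 was also lower in the MLL1-KO lines than in the SIN3A+SIN3B-DKO lines (-1.09, standard error 0.11, adjusted p = 3.9e-06), again with no overlap. HSPA1A was higher in the MLL1-KO lines than in the SAP30-KO lines (1.11, adjusted p = 2.8e-07) and the SIN3A+SIN3B-DKO lines (1.43, adjusted p = 3.2e-08), beside the change in its share of the pair's reads given above. HSPA1B was lower in MLL1-KO2 than in MLL1-KO1 (-0.75, adjusted p = 6.9e-06), and the pair summed as 1 gene was lower there too (-0.68, adjusted p = 1.1e-05). The part of read assignment between HSPA1A and HSPA1B, and of the unlike libraries of SIN3A+SIN3B-DKO2, in these values was not tested. The p values between genotypes leave out the spread between the 2 lines of a genotype. Against parental, HSPA5 was at 0.86 in SIN3A+SIN3B-DKO1 and 0.31 in SIN3A+SIN3B-DKO2.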

How the results depend on the processing

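Of 1026 values recomputed under other choices, 982 kept their side of the threshold, or for counts stayed within 1.5 times. Values that changed sign without being called are among the 982. HSPA8 was such a case in SAP30-KO1 and SAP30-KO2, going from -0.25 and -0.27 to 0.51 and 0.51 with neighbouring genes subtracted. HSPA6 was above 0 in the SAP30-KO and SIN3A+SIN3B-DKO lines under all 13 alternatives, from 0.66 to 2.41 on the log2 scale. In MLL1-KO1 it was 0.46 with pseudocount 1 and 0.53 to 0.87 with a library left out, and in MLL1-KO2 it was 0.79 after quantile normalization and -0.08 to 0.43 with a library left out. Quantile normalization moved the median of all genes by 0.13 in MLL1-KO1, and calls that were lower went from 70.3% to 51.6% there and from 59.3% to 48.4% in MLL1-KO2. HSPA5 in MLL1-KO2 met the call rule after quantile normalization (-0.59) and with neighbouring genes subtracted (-0.61). HSPA8 in MLL1-KO1 turned from -0.04 to 0.91 with neighbouring genes subtracted.

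Counts of the 9 other members, higher and lower, became 4 and 2, 5 and 3, 4 and 3, 3 and 3, 4 and 2, and 3 and 5 in the order of the lines with no fold minimum, where 21.8% to 28.1% and 22.9% to 38.7% of all genes were called. They became 3 between the SIN3A+SIN3B-DKO lines, 6 between the MLL1-KO lines, and 9, 7 and 6 between genotypes (SIN3A+SIN3B-DKO against SAP30-KO, MLL1-KO against each), where 12.5%, 42.1%, 48.6%, 67.8% and 67.8% of all genes were called. At 2-fold, 0 were higher in SAP30-KO2, SIN3A+SIN3B-DKO1 and MLL1-KO2, and 0 lower in MLL1-KO2, which was also 0 with pseudocount 1 and median ratio scaling. With neighbouring genes subtracted, SIN3A+SIN3B-DKO1 and MLL1-KO1 had 1 higher each and MLL1-KO2 had 2 lower. With a library left out, the lone library being assumed to vary like the rest, higher counts ran from 1 to 2 in SIN3A+SIN3B-DKO1 and 0 to 1 in SIN3A+SIN3B-DKO2, lower counts from 0 to 1 in MLL1-KO2, and the count between the SIN3A+SIN3B-DKO lines from 0 to 1 (1 without SIN3A+SIN3B-DKO2 replicate 1). The cause was not tested.

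Libraries with the same replicate number did not deviate together (21 pairs of groups, mean r 0.02, from -0.07 to 0.08). This check cannot show whether libraries of the same number were prepared together, and the labels do not say. With the replicate block HSPA6 in SAP30-KO1 stayed at 1.10, no call of a member changed, and 1055 genes were called higher there against 1056. Depth limits HSPA6, with 4 to 35 reads a library.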
